A study of Homo sapiens with 8 samples.

Results

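The genes described are the p53 relatives TP63 and TP73 and 8 transcription factor genes of squamous differentiation, KLF4, KLF5, GRHL1, GRHL2, GRHL3, OVOL1, ZNF750 and PRDM1. They were taken by name, through the RefSeq accession of each probe, and make up 10 of the 20296 genes with a named probe. RNA came from MCF10A, an immortalised and non-tumorigenic human mammary epithelial cell line, with intact p53 (p53+/+) or without it (p53-/-). Untreated cells of each genotype (0 h) were set against cells harvested 12, 24 or 48 h after exposure to the DNA-damaging drug doxorubicin (adriamycin, ADR). The labels give the treatment as 0.5 µg/ml for 2 h, while the methods of the study name a higher dose of ADR. How the p53-/- line was made, and whether it is 1 clone, is not given in the sources used here. Each genotype and time has 1 single-colour Agilent array, 8 in all, so no single value has a replicate error.

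In stratified epithelia such as the epidermis, p63 holds basal cells in a proliferating, attached state and opens the way to the differentiated layers. The factors downstream act in steps: KLF5 in basal cells, then ZNF750, KLF4, GRHL3, OVOL1 and PRDM1 as cells leave the basal layer, lose adhesion to the matrix and build the cornified envelope. Grainyhead-like (GRHL) and OVOL proteins also keep epithelial genes on and their antagonists ZEB1 and ZEB2 off. Mammary basal cells, the type that MCF10A resembles, carry p63 but do not normally cornify.

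All levels below are log2 processed signals relative to the 75th percentile of the same array, so 0 is the level of a fairly bright probe and each unit is a 2-fold step. The gene's value is that of its probe with the highest mean. Where the scanner software did not score a probe as well above background on an array, its level there is only an upper limit. A fold against such a level is given as "at least", computed against the lowest level among probes well above background on that array, or against the dim probe's own level where that is higher. The technical SD comes from the 999 probes printed in 10 spots and covers the spread between spots only.

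Over the arrays the 75th percentile was 661 to 1199, 49.8 to 62.9% of probes were well above background, and no spot was saturated. Treated p53+/+ arrays were dimmer than treated p53-/- arrays, with a 75th percentile of 661 to 818 against 1118.5 to 1199. Probes well above background were 49.8 to 53.1% against 57.4 to 62.9%. The lowest level well above background was -4.77 to -4.50 against -5.70 to -5.53. Brightness and genotype therefore go together on the treated arrays. The p53+/+ 48 h array was the dimmest, and none of its 10 spike-in probes was well above background, against 6 on each of the other 7 arrays. The p53 targets CDKN1A and MDM2 were higher in treated p53+/+ cells by 3.31 (SE 0.20) and 3.15 (SE 0.25), with limma adjusted p = 0.00045 and 0.000954. Of 67 probes that separated treated p53+/+ from all p53-/- arrays by at least 4-fold, with a range of at most 0.70 on the log2 scale within each set, the array labelled p53+/+ 0 h lay nearer to the p53-/- mean for all but 2. These probes were picked on the treated p53+/+ arrays, so a response to ADR and a wrong label cannot be told apart by them. CDKN1A was 3.56-fold higher on the array labelled p53+/+ 0 h than on the p53-/- 0 h array, and MDM2 1.26-fold lower. The array is called by its label throughout, and every change in p53+/+ cells is also given from the p53-/- 0 h array. All 8 arrays were on 1 slide with one genotype in each column, so genotype and column cannot be told apart. Markers of basal mammary epithelium were present, with 7 of 7 well above background on every array. Other marker sets were present in part. In each genotype, untreated or treated, 4 to 5 of 7 luminal and 1 to 4 of 7 fibroblast markers were well above background on all arrays.

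After ADR, GRHL3, PRDM1, OVOL1 and ZNF750 were higher in p53+/+ than in p53-/- cells, and no member was called lower. They are GRHL3, a grainyhead-like factor needed for the epidermal barrier, OVOL1, a zinc finger repressor that takes progenitors out of the cell cycle, ZNF750, a nuclear factor of terminal differentiation that acts below p63, and PRDM1 (BLIMP1), a repressor used in the last steps of cornification. GRHL3 was a mean of 14.2-fold higher and PRDM1 3.55-fold higher, both well above background on every array. OVOL1 was at least 3.27-fold higher at 12 h and ZNF750 at least 4.61-fold and 4.12-fold higher at 12 and 24 h, the times at which they were measured in p53+/+ cells. These 2 genes were never well above background in p53-/- cells and entered the test only through those p53+/+ arrays, so their p-values rest largely on signals at background and carry little weight. TP63, TP73, KLF4, KLF5 and GRHL1 did not pass the test, and GRHL2 was not well above background anywhere. The test was limma with Benjamini-Hochberg adjustment on the 6 treated arrays, with the 3 times taking the place of replicates. Its p-values therefore set a difference against movement over time, not against the spread between cultures. Across the 28947 probes tested, 10.6% were called higher and 7.4% lower in p53+/+ cells. Where only probes well above background on all 6 arrays were tested, 5 members entered and GRHL3 and PRDM1 were called. The share of all probes called under that filter is not given here. A size rule of at least 2-fold at all 3 times called 6.75% of 15811 genes higher and 5.92% lower, GRHL3 and PRDM1 among the former, and PRDM1 not without scaling. The signals of OVOL1 and ZNF750 also passed this rule, but at 24 and 48 h for OVOL1 and at 48 h for ZNF750 both arrays were not well above background, so no fold is known there, and ZNF750 did not pass with median scaling, no scaling or normexp. In bulk RNA of this kind, fewer cells with a transcript and less of it per cell cannot be told apart.

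**Figure D1:**
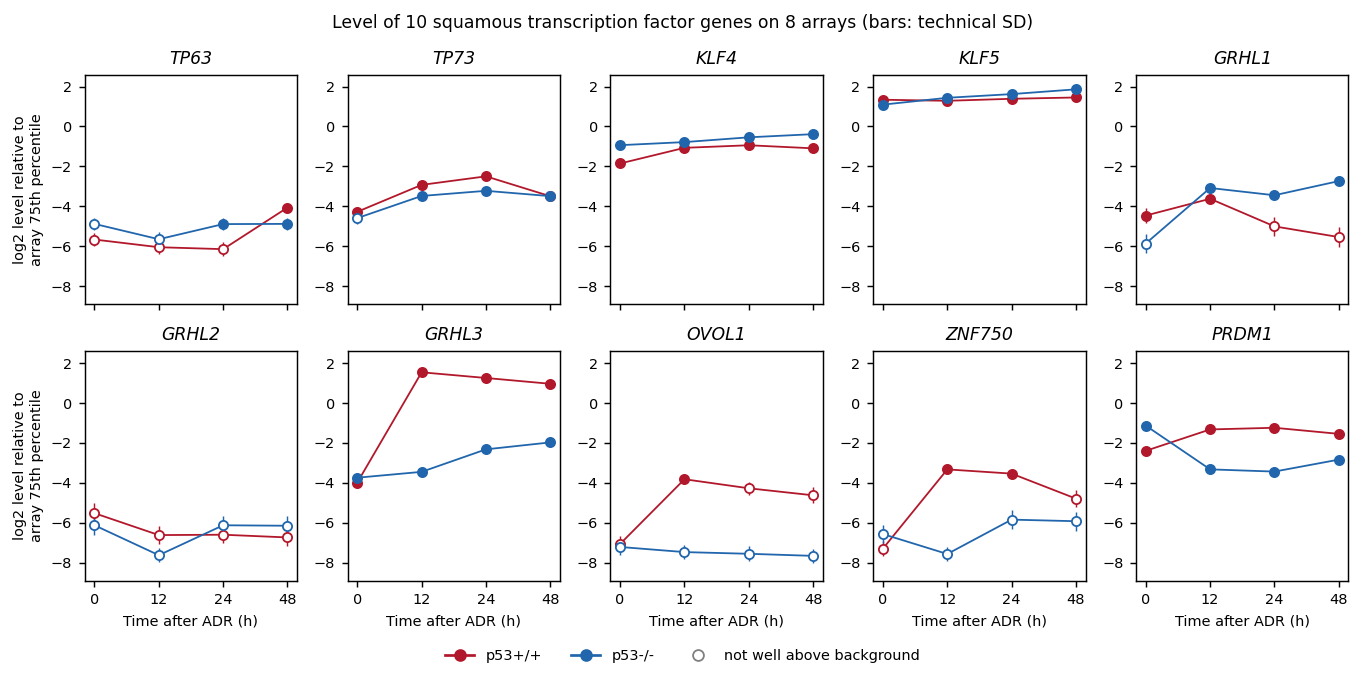
Level of each of the 10 genes (log2 relative to the array's 75th percentile) against hours after ADR, in p53+/+ (red) and p53-/- (blue) cells, 1 array per point, with bars for the technical SD and open points where the probe was not well above background. GRHL3 and PRDM1 lie higher in p53+/+ cells at all 3 treated times, OVOL1 and ZNF750 do so with many open points, GRHL1 lies lower, and KLF4 and KLF5 run close together.

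The starts of GRHL3 and PRDM1 are shown because, of the 4 members called between genotypes, only these had a promoter sequence available here. Both were also well above background on all 8 arrays. Each stretch is the RefSeq promoter of assembly GRCh38.p14, from 250 bases before to 50 after the gene's start, 5′ to 3′ on the plus strand, GRHL3 at chr1:24319107-24319406 and PRDM1 at chr6:106086086-106086385. Capitals mark matches, read on either strand and none overlapping another, to the E-box CACCTG that ZEB repressors can bind and to the CACCC box of Krüppel-like factors.
GRHL3: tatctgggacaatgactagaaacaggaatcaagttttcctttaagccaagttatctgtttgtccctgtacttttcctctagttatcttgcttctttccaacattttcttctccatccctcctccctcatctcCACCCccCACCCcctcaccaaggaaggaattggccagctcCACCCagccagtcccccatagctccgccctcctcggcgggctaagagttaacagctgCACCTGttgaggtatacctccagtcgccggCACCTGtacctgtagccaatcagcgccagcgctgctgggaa
PRDM1: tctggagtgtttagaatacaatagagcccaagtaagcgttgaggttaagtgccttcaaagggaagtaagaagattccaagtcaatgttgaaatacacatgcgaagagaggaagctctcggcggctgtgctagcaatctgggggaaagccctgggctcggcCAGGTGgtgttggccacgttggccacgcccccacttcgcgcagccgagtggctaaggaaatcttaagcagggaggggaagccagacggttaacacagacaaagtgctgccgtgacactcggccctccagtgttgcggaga

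The GRHL3 window held the E-box in 2 places and the CACCC box in 3, and the PRDM1 window held the E-box once. Among 27305 promoters of the same length, 20.6% held the E-box and 58.9% the CACCC box, so both matches are frequent letters. The p53 half-site was in 6.54% of promoters, the GRHL motif AACCGGTT in 0.117% and the AP-1 motif TGANTCA in 7.76%, and none of these 3 was in the windows of the 7 members that were matched, TP63, TP73, KLF4, KLF5, GRHL1, GRHL3 and PRDM1. The TATA box TATAAA, found in 12.0% of promoters, was in the windows of TP63 and KLF5. The CACCC box was also in the windows of TP73 and KLF5, and the E-box in no other member's window.

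GRHL3 showed the widest separation of the members measured on all arrays. Its levels in p53-/- cells were -3.74, -3.45, -2.32 and -1.97 at 0, 12, 24 and 48 h in turn. On the array labelled p53+/+ 0 h it was -3.98, and in treated p53+/+ cells it was 1.54, 1.26 and 0.97 at 12, 24 and 48 h. The 3 treated p53+/+ arrays were thus far above the other 5, which lay below the lowest of them by over 2 units. The difference between genotypes narrowed from 4.99 at 12 h (31.7-fold, technical SD 0.22) to 3.57 at 24 h (11.9-fold, SD 0.15) and 2.94 at 48 h (7.65-fold, SD 0.14). Over these times the level in p53-/- cells went up and that in p53+/+ cells went down. At 12 h the difference was above that of 99.4% of all genes measured, and at 24 and 48 h above that of 98.1%. In limma the estimate was 3.83 (SE 0.40, adjusted p = 0.00245). Leaving out the 24 h arrays kept the estimate at 3.96 but gave an adjusted p of 0.0727, and over all probes only 292 calls were left of 5201. The second probe, for the transcript NM_198174, was well above background on 1 array and did not pass the test (0.33, SE 0.67, limma adjusted p = 0.779), so the difference was seen through the NM_198173 probe alone.

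OVOL1 was detected on a single array, the p53+/+ 12 h array, at -3.82. On the array labelled p53+/+ 0 h the level was -7.06, and at 24 and 48 h in p53+/+ cells it was -4.27 and -4.62, not well above background. In p53-/- cells its signals were -7.21, -7.46, -7.55 and -7.65, near the bottom of the scale and not well above background on any array. At 12 h the gene was at least 3.27-fold higher in p53+/+ cells. The treated means were -4.24 (SD 0.40, n = 3 times) and -7.56 (SD 0.09, n = 3 times), and limma gave 3.32 (SE 0.24, adjusted p = 0.000777). Of the 6 signals in that fit 5 were not well above background, and the gene could not enter the fit limited to probes well above background on all arrays. Only the lower limit at 12 h is known, and no difference was measured at any time.

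ZNF750 was well above background on the p53+/+ 12 and 24 h arrays, at -3.32 and -3.53. It was at -4.79 in p53+/+ cells at 48 h and at -7.29 on the array labelled p53+/+ 0 h, neither well above background. The p53-/- levels of -6.56, -7.56, -5.84 and -5.92 were not well above background either. They are upper limits that lie below the levels measured in p53+/+ cells at 12 and 24 h. The gene was at least 4.61-fold higher in p53+/+ cells at 12 h and at least 4.12-fold higher at 24 h, with no fold to be had at 48 h. The limma value of 2.56 (SE 0.58, adjusted p = 0.0287) includes 4 signals of 6 that were not well above background, and the call held in 5 of 9 alternatives. Without the 12 h arrays the adjusted p was 0.0915, without the 24 h arrays 0.187, without scaling 0.06 and with time as a block 0.0593.

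PRDM1 was the one of these 4 whose untreated level in p53-/- cells was as high as in treated p53+/+ cells. In p53-/- cells it was -1.13 at 0 h and then -3.32, -3.43 and -2.83 at the later times. The array labelled p53+/+ 0 h was at -2.39 and the treated p53+/+ arrays at -1.32, -1.24 and -1.54. The treated arrays of the 2 genotypes did not overlap, and how many genes share this was not counted. Its difference was past 2-fold at all 3 times, as it was for 6.75% of all genes. PRDM1 was 4.0-fold higher in p53+/+ cells at 12 h, 4.58-fold at 24 h and 2.45-fold at 48 h, with a limma estimate of 1.83 (SE 0.23, adjusted p = 0.004). Without the 24 h arrays the estimate was 1.65 and its adjusted p 0.107. The second PRDM1 probe, well above background on 5 arrays, gave 1.69 (SE 0.36, limma adjusted p = 0.0228), in the same direction.

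**Figure D2:**
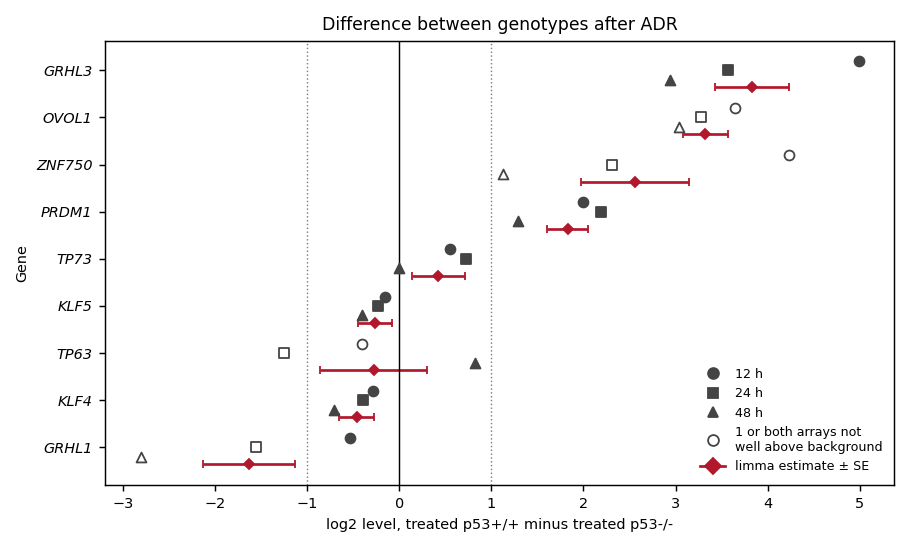
Difference in log2 level, p53+/+ minus p53-/-, at each of 3 times after ADR (grey symbols, open where 1 or both arrays were not well above background) and the limma estimate over the 3 times with its SE (red), for the 9 members tested; dotted lines mark 2-fold. GRHL3 and PRDM1 have all 3 times beyond 2-fold higher with filled symbols, while OVOL1, ZNF750 and the later times of GRHL1 have open symbols, whose positions are not measured differences.

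The other grainyhead-like genes did not follow GRHL3. GRHL1, which drives desmosomal cadherin genes, was not well above background at 0 h in p53-/- cells (-5.86) and was at -3.08, -3.45 and -2.74 after ADR. In p53+/+ cells it was -4.46 on the array labelled 0 h and -3.62 at 12 h, and at 24 and 48 h it was no longer well above background (-5.01 and -5.54). The genotypes differed by -0.54 at 12 h, and p53+/+ cells were then at least 2.08-fold lower at 24 h and at least 3.70-fold lower at 48 h. The limma estimate of -1.63 (SE 0.50) had an adjusted p of 0.0674 and therefore did not pass, while without the 12 h arrays it was -2.18 with an adjusted p of 0.0359. The second GRHL1 probe was well above background on 1 array and gave 0.05 (SE 0.51, limma adjusted p = 0.961). GRHL2, the broad regulator of E-cadherin and of tight junction genes, was not well above background on any array with either of its 2 probes, and was not tested.

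The p53 relatives themselves were dim. TP63 was read by 1 probe, for NM_003722, which was well above background on 3 arrays, p53-/- 24 h (-4.89), p53-/- 48 h (-4.88) and p53+/+ 48 h (-4.06). On the other 5 arrays it was between -6.15 and -4.88, so measured and unmeasured levels overlap. The genotypes were not separated (-0.28, SE 0.58, limma adjusted p = 0.783), and the sign turned with normexp background correction (0.41) and without the 24 h arrays (0.21). The low signal of this probe stands beside bright basal markers on the same arrays, and which p63 transcripts it can detect was not tested.

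TP73 was measured on 7 arrays and was higher on every treated array than on either 0 h array. In p53-/- cells it was -4.59 at 0 h, not well above background, and -3.48, -3.23 and -3.49 after ADR. In p53+/+ cells it was -4.28 on the array labelled 0 h and -2.93, -2.50 and -3.50 after ADR. The treated genotypes overlapped, with differences of 0.55 at 12 h, 0.73 at 24 h and -0.01 at 48 h, and limma gave 0.42 (SE 0.28, adjusted p = 0.339). Without scaling this estimate turned to -0.17, and with normexp it passed narrowly at 0.48 (adjusted p = 0.0499). The second TP73 probe was well above background on the p53-/- 24 and 48 h arrays only.

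The Krüppel-like factors were well above background on all 8 arrays. KLF5, which maintains basal epithelial cells, was between 1.09 and 1.86 on all 8 arrays, a range of 0.77, and gave -0.26 between treated genotypes (SE 0.19, limma adjusted p = 0.374). KLF4, which acts in the barrier-forming layers, was at -0.94, -0.78, -0.54 and -0.39 in p53-/- cells. It was at -1.86 on the array labelled p53+/+ 0 h and at -1.07, -0.94 and -1.10 in treated p53+/+ cells, a little below p53-/- at each time. The limma estimate was -0.46 (SE 0.19, adjusted p = 0.134). Without scaling between arrays, which lowered the median difference of all genes from 0.05 to -0.53, KLF4 (-1.06), KLF5 (-0.86) and GRHL1 (-2.23) were called lower in p53+/+ cells by limma, with adjusted p = 0.0159, 0.023 and 0.0278.

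Next, the change after ADR was described by size at each time within each genotype, and was not tested. In p53-/- cells TP73 and GRHL1 were over 2-fold above 0 h at all 3 times and PRDM1 over 2-fold below, beside 3.21% of genes higher and 2.04% lower. TP73 was at least 2.16-fold, 2.58-fold and 2.14-fold above its 0 h level at 12, 24 and 48 h. GRHL1 was at least 4.47-fold, 3.47-fold and 5.68-fold above. PRDM1 was 4.57-fold, 4.93-fold and 3.26-fold below its 0 h level (log2 differences of -2.19, -2.30 and -1.70), with technical SDs of 0.13 to 0.16. GRHL3 differed from 0 h by 0.29, 1.42 and 1.77 in these cells, past 2-fold at the later 2 times. The calls of TP73 and GRHL1 rest on 1 dim 0 h level each, and neither held with normexp. That setting left PRDM1 as the only member called, beside 165 genes higher and 173 lower. The TP73 call was also lost with median scaling (0.99 at 48 h) and with the mean of all probes, while that of GRHL1 held in both.

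In p53+/+ cells GRHL3 was over 2-fold above the array labelled p53+/+ 0 h at all 3 times, beside 9.53% of genes higher and 6.39% lower. The signals of OVOL1 and ZNF750 passed the same rule, but the 24 and 48 h signals of OVOL1 and the 48 h signal of ZNF750 were not well above background on either array compared, so no fold is known there. GRHL3 was 46.0-fold, 37.7-fold and 30.8-fold above that array at 12, 24 and 48 h (log2 changes of 5.52, 5.24 and 4.95). From the p53-/- 0 h array the changes were 5.28, 4.99 and 4.70, so the level after ADR was far above either untreated array. OVOL1 was at least 2.54-fold above the array labelled p53+/+ 0 h at 12 h and at least 2.69-fold above the p53-/- 0 h array. ZNF750 was at least 3.57-fold and 3.08-fold above the former at 12 and 24 h, and at least 3.78-fold and 3.27-fold above the latter. With signals below background set to a floor, GRHL3 alone was called, beside 1278 of 15811 genes higher and 867 lower.

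TP73 in p53+/+ cells differed by 1.35, 1.78 and 0.78 from the array labelled p53+/+ 0 h, and was at least 3.17-fold, 4.26-fold and 2.13-fold above the p53-/- 0 h array, so its call depended on the baseline. PRDM1 depended on it in direction, with 1.07, 1.15 and 0.85 from the array labelled p53+/+ 0 h but -0.19, -0.11 and -0.41 from the p53-/- 0 h array. The 2 untreated arrays differed in PRDM1 by -1.26 (2.40-fold lower on the array labelled p53+/+), where 4.25% of all genes were over 2-fold higher and 5.38% lower. GRHL1 was at least 1.72-fold higher on that array, and its signal difference of 1.40 was no longer over 2-fold with a signal floor or with normexp.

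**Figure D3:**
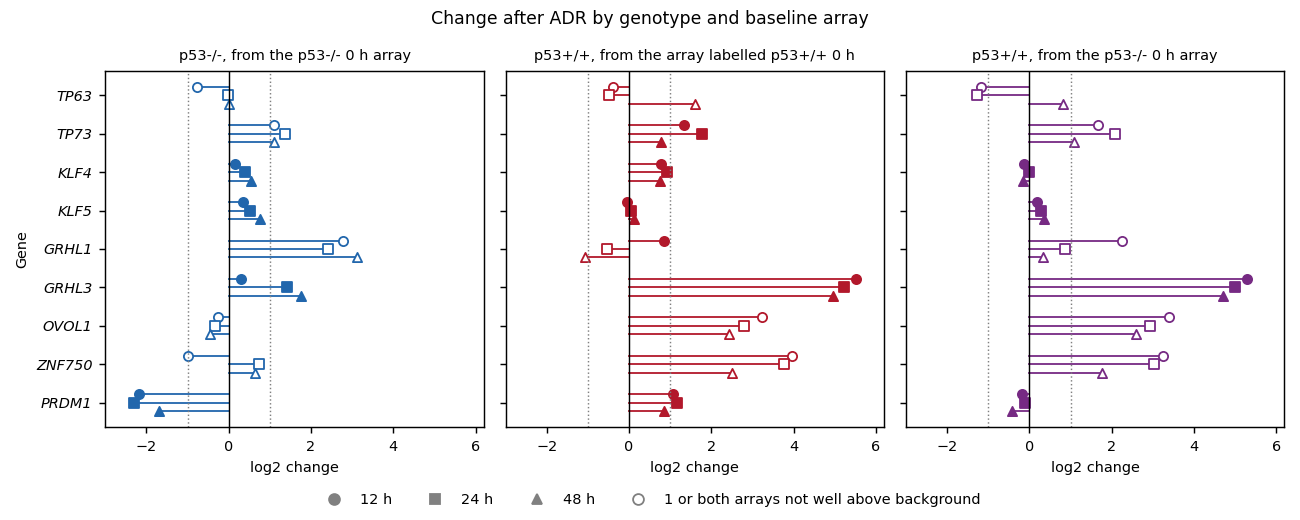
Log2 change of the 9 measurable members at 12 h (circles), 24 h (squares) and 48 h (triangles) after ADR, in p53-/- cells from their own 0 h array (left), in p53+/+ cells from the array labelled p53+/+ 0 h (middle) and in p53+/+ cells from the p53-/- 0 h array (right), 1 array per point and open symbols where 1 or both arrays were not well above background. GRHL3 lies far to the right in both p53+/+ panels, OVOL1 and ZNF750 do so with open symbols, while PRDM1 lies left of -1 in p53-/- cells and changes side between the p53+/+ panels.

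Whether the response itself differed between genotypes was tested with the interaction of genotype and treatment in limma over all 8 arrays. OVOL1 (3.17, SE 0.49, adjusted p = 0.037) and PRDM1 (3.09, SE 0.45, adjusted p = 0.0325) were called, beside 0.94% of probes higher and 0.746% lower. For GRHL3 the estimate was larger, 4.07, but so was its error (SE 0.80, adjusted p = 0.0655), and ZNF750 gave 3.29 (SE 1.17, adjusted p = 0.222). GRHL1 gave -3.03 (SE 0.99, adjusted p = 0.19), and TP63, TP73, KLF4 and KLF5 were within 0.51 of 0. This test rests on 1 untreated array per genotype. With time as a block neither call held (adjusted p = 0.0694 and 0.0917). The OVOL1 call, in which 7 of 8 signals were not well above background, held in 1 of 9 alternatives and was lost with quantile (0.0635), median (0.055) and no scaling (0.0726) and with normexp (0.057), and the PRDM1 call held in 5 of 10. Leaving out any of the 3 treated times ended both calls, with adjusted p from 0.0681 to 0.286 for OVOL1 and from 0.0602 to 0.285 for PRDM1.

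The genes around these factors were then described from 4 lists, each by its counts in limma between treated genotypes and its median, beside 1829 of 15811 genes higher, 1476 lower and a median of 0.05 over all genes. The lists were chosen with earlier results of these data known. Counts are over the list genes well above background on at least 1 array. Among basal genes associated with p63, 22 of 28 were higher in treated p53+/+ cells and 0 lower, with a median difference of 1.82. BMP7, among the 22, was well above background on the treated p53+/+ arrays only, so its call carries little weight. CLCA2, a membrane protein of basal epithelia, was 29.1-fold higher (4.86, SE 0.68, adjusted p = 0.00613), DSG3, the basal desmoglein, 25.6-fold (4.68, SE 0.32, adjusted p = 0.000665), and COL17A1, the hemidesmosome collagen, 14.2-fold (3.83, SE 0.37, adjusted p = 0.00179). FGFR3, a growth factor receptor, was the one member of that list past 2-fold lower at all times, at -1.62, and did not pass limma (adjusted p = 0.104). The TP63 probe itself gave -0.28 between the same arrays, as above.

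Of 22 epithelial genes tied to GRHL and OVOL factors, 12 were higher and 3 lower, with a median of 1.22. NECTIN4, an adhesion molecule, was 41.0-fold higher (5.36, SE 0.22, limma adjusted p = 0.000124) and PRSS8, the membrane protease prostasin, 24.7-fold (4.63, SE 0.45, adjusted p = 0.00195). The lower genes were ZEB1, ZEB2 and TGFB2, which are all known for opposing the epithelial state and are in that list as such. ZEB1 was 3.33-fold lower (-1.73, SE 0.28, limma adjusted p = 0.00942), TGFB2, well above background on 1 of 3 treated p53+/+ arrays, lower with an adjusted p of 0.00451, and ZEB2, not well above background in treated p53+/+ cells, at least 3.97-fold lower (adjusted p = 0.00863). RAB25, a small GTPase of epithelial cells, was at least 3.70-fold higher in treated p53+/+ cells (limma adjusted p = 0.000598). Its p53-/- signals were not well above background, so this p-value carries little weight. RAB25 was at -1.36 on the array labelled p53+/+ 0 h, above all treated arrays, and at -7.10 on the p53-/- 0 h array. ELF5, from the list of other squamous transcription factors, was likewise at -1.36 on the former and -6.69 on the latter. ELF5 was not well above background on any other array. For these genes the array labelled p53+/+ 0 h did not resemble p53-/- cells.

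Late squamous genes were less uniform, with 9 of 30 higher, 0 lower and a median of 0.55. The list held 37 genes, and those outside the 30 were not well above background on any array. ABCA12, the lipid transporter of the skin barrier, had a mean of -2.04 in treated p53-/- and 5.04 in treated p53+/+ cells and was 136-fold higher (limma 7.08, SE 0.81, adjusted p = 0.0031). IVL, which encodes involucrin of the cornified envelope, was 69.7-fold higher (6.12, SE 0.48, adjusted p = 0.000913) and CSTA, the envelope precursor cystatin A, 15.3-fold (3.94, SE 0.54, adjusted p = 0.00569). The keratins were not uniform. KRT13 was 4.16-fold higher (2.06, SE 0.32, limma adjusted p = 0.00877). KRT10 (-0.08) and KRT16 (-0.05) did not pass the test (limma adjusted p = 0.824 and 0.93), nor did KRT4 (-0.13) and KRT6A (0.26). TGM1, the transglutaminase linked to GRHL3 in skin, gave 0.60 (SE 0.39, adjusted p = 0.322). These keratins and TGM1 were named after their values were seen.

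Of 29 other squamous transcription factors, 5 were higher and 3 lower, with a median of 0.21. EHF, an epithelial ETS factor that was not well above background in treated p53-/- cells, was at least 14.9-fold higher (limma adjusted p = 0.0153), and its levels in treated p53+/+ cells were -3.63, -1.45 and -0.02 in order of time. EHF was well above background on the treated p53+/+ arrays only and entered the test through them, so its p-value carries little weight. VDR, the vitamin D receptor, was 3.57-fold higher (1.83, SE 0.31, adjusted p = 0.0116). SATB1, a chromatin organiser, was at least 2.27-fold lower (limma adjusted p = 0.0186), and RORA, a nuclear receptor that was past 2-fold lower at all times, gave an adjusted p of 0.102.

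**Figure D4:**
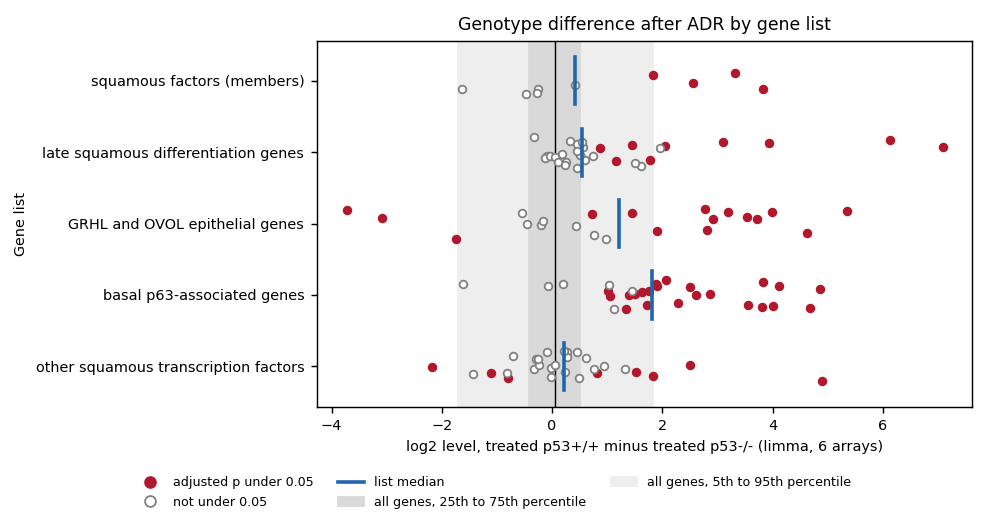
Difference in log2 level between treated p53+/+ and treated p53-/- cells (limma over 6 arrays), 1 point per gene, for the members and the 4 lists of related genes, filled red where the adjusted p is under 0.05. Blue bars are list medians, the black line and grey bands are the median, the 25th to 75th and the 5th to 95th percentiles of all 15811 genes; the basal list has its median at 1.82 and the epithelial list at 1.22, against 0.05 for all genes.

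Markers of other cell states moved with the same split of the arrays. The summed level of 7 fibroblast markers was 5.71 to 6.07 on all p53-/- arrays and on the array labelled p53+/+ 0 h, and 2.12 to 2.39 in treated p53+/+ cells, where COL1A1, COL1A2, COL3A1, LUM, PDGFRA and PDGFRB were not well above background on any of the 3 arrays. COL1A2 and COL3A1 were not well above background on any array of either genotype. The summed level of the 7 basal markers was 5.73 to 6.43 on the first set and 7.58 to 8.20 on the second. The summed luminal markers were 5.30 to 6.01 and 6.06 to 6.57, and the summed leukocyte markers, 4 of 5 matched, 1.43 to 2.61 and 0.88 to 1.73. The part of these shifts in the results for the 10 factors was not tested.

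Finally, genes with the most similar profile over the 8 arrays were sought among 13762 genes well above background on at least 4 arrays, as a description. The profile of TP63 was nearest to those of ZNF768 (Pearson r = 0.98), UBE2D1 (0.95) and LRRC27 (0.95), with most TP63 values below background. TP73 was nearest to EFNA4 (0.97), ADAM21 (0.97) and POC1B (0.97). All 8 points share 1 slide and fall into treated p53+/+ arrays and the rest.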

How the data were processed

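Per the labels, Cy3-labelled RNA was hybridised to Agilent arrays and read with Agilent Feature Extraction 10.7.3.1. The authors deposited 1 scanner file per array and a series table whose values matched them (503808 of 503808 equal, relative tolerance 0.0001). The processed signal deposited by the authors is an intensity on a linear scale, already background-subtracted, and no normalization between arrays is given in the sources used here. Control spots and outlier-flagged spots were left out, leaving 42391 of 42405 probes. From the deposited values, log2 intensity minus that of each array's 75th percentile was averaged over spots of a probe. RefSeq accessions named 27227 probes (64.2%) of 20296 genes. The 28947 probes that stood well above background on 1 or more arrays entered limma 3.58.1 (lmFit, eBayes, Benjamini-Hochberg, threshold 0.05, R 4.3.3), either the 6 treated arrays by genotype or all 8 with the interaction. The size rule was 2-fold at all 3 times. The fit to the 6 treated arrays was run on simulated data with independent errors, and the interaction fit was not.

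The members and the gene lists were chosen with earlier results of these data known. Named genes were all members with every probe, CDKN1A and MDM2, up to 3 genes per direction from each list with the largest smallest difference among those past the size rule, and the 3 genes most like TP63 and TP73. A few genes it would name are not reported here. Alternatives were quantile, median and no scaling, normexp (offset 50), other filters, a 3-fold rule, 2 of 3 times, the mean of all probes, each treated time left out, time as a block and the other baseline. A signal floor and the size rule without the 48 h arrays were added after the data were seen. Python 3.11.15, numpy 2.4.6, pandas 2.3.3 and matplotlib 3.10.9 were used. With 1 array per condition, array number sets the precision.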

Additional observations from a re-analysis of the deposited data

Results flagged for a closer look

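OVOL1 and PRDM1 were singled out because their change after ADR differed between genotypes by the interaction test itself. For OVOL1 the limma interaction was 3.17 (SE 0.49, adjusted p = 0.037), with the treated p53+/+ arrays at -3.82, -4.27 and -4.62 and all p53-/- arrays between -7.65 and -7.21, and a single array well above background. That call held in 1 of 9 alternatives, and was lost with each other scaling, with normexp, with time as a block and when any treated time was left out. For PRDM1 it was 3.09 (SE 0.45, adjusted p = 0.0325), with levels under that of 0 h in p53-/- cells at 3 of 3 times, and a change in p53+/+ cells whose sign depends on which untreated array is the baseline. It held in 5 of 10 alternatives and was lost with no scaling, with time as a block and when any treated time was left out. The array labelled p53+/+ 0 h, whose label was not tested, enters both values.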

How the results depend on the processing

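In limma between treated genotypes, 5201 probes were called (58.8% of them higher). The count was 9393 without scaling (14.5% higher), 9894 with normexp (73.3%), 12536 with no filter (78.4%), and 292 to 2670 when 1 treated time was left out, and the share higher was 48.3% with quantile and 44.7% with median scaling. By size, 2004 genes (53.3% higher) became 1011 at 3-fold and 3649 at 2 of 3 times, with 41.8% higher under median and 20.0% under no scaling. In p53-/- cells 830 changed genes (61.2% higher) became 338 with normexp (48.8%), 228 at 3-fold and 2154 at 2 of 3 times, with 90.8% higher under no scaling. In p53+/+ cells 2517 (59.9% higher) became 1631 with normexp, 1330 at 3-fold and 4145 at 2 of 3 times, with 49.3% higher under median and 33.6% under no scaling. At 0 h 1522 (44.2% higher) became 564 with normexp, and 66.4% were higher without scaling. The 488 interaction calls (55.7% higher) became 1296 without scaling (14.0%), 1251 with normexp (66.4%), 60 with time as a block (76.7%) and 0 to 42 when 1 time was left out. The limma counts of 0 came without the 24 h and without the 48 h arrays, where 3063 and 5274 probes had an unadjusted p under 0.05. The cause was not tested. The size rule without the 48 h arrays still called GRHL3 and PRDM1.

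These members turned sign. TP73 between treated genotypes was -0.17 without scaling, and its interaction was -0.05 with quantile, -0.040 with median and -0.70 with no scaling, and -0.042 to 0.32 when 1 time was left out, negative without the 24 h arrays. TP63 between treated genotypes was 0.41 with normexp and -0.83 to 0.21 when 1 time was left out, positive without the 24 h arrays, and its interaction was -0.30 without scaling and -0.044 to 0.99 when 1 time was left out, negative without the 48 h arrays. The KLF4 interaction was -0.35 without scaling. None of these had passed the test. The mean change of PRDM1 in p53+/+ cells was -0.24 from the p53-/- 0 h array. Over all alternative values of the member fits, 134 kept direction and side of the threshold, 19 no longer passed, 8 newly passed and 10 turned sign. Arrays of the same time were paired across genotypes in the fit with time as a block, where limma called 4451 probes between treated genotypes. Among the members this fit called GRHL3 (limma adjusted p = 0.0131), OVOL1 (0.00486) and PRDM1 (0.0186), and ZNF750 (0.0593) no longer passed. OVOL1 was well above background on only 1 array of that fit, in p53+/+ cells, so its p-value carries little weight. Each group has 1 array, so replicate numbers link none.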
